A study of Oryza sativa with 12 samples.

Results

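A set of 6 rice genes for oxygen handling and alcoholic fermentation was followed, out of 37960 genes in the deposited table of read counts. They were chosen with earlier results of these data known. By locus identifier they are HB1 (Os03g0233900), SUS1 (Os03g0401300), PDC1 (Os05g0469600), PDC2 (Os03g0293500), ADH1 (Os11g0210300) and ADH2 (Os11g0210500). Their identifiers place HB1, SUS1 and PDC2 on chromosome 3, PDC1 on chromosome 5, and ADH1 and ADH2 on chromosome 11. RNA-seq had been done on leaves and roots of rice seedlings aged 1 month and grown in nutrient solution. The groups were wild type (WT, named ZH11 in the titles) leaf, f3h leaf, WT root and f3h root, with 3 libraries each. The f3h line is labelled a knockdown, while the design text speaks of CRISPR mutants. The sources used here do not name the targeted locus, the number of independent lines or whether libraries came from separate plants. The targeted gene was therefore not checked, and p-values measure only the spread between these libraries. That spread may be technical.

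Plants meet oxygen shortage by fermenting sugar. Sucrose synthase splits sucrose for glycolysis, pyruvate decarboxylase turns pyruvate into acetaldehyde, and alcohol dehydrogenase reduces acetaldehyde to ethanol, which regenerates the NAD+ that glycolysis needs. Class 1 plant haemoglobins, also called phytoglobins, bind oxygen very tightly and remove nitric oxide. In rice, genes of the fermentation steps are well known to be induced when roots or germinating seeds are under water.

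Total counts were 31171931 to 37821918 in leaf libraries and 23740780 to 29687320 in root libraries. Levels are in CPM, the usual unit in which a gene's counts are divided by the total of its library, and are given as mean ± SD over 3 libraries. Gene lengths were not used, so levels are compared between groups and not between genes. The ratio of HB1 to HB2 counts is given only for how it changes between groups. WT leaf replicate 1 stood apart from WT leaf replicates 2 and 3, with a chi-square per degree of freedom of 61.0 and 64.9 between their counts, against 5.49 to 7.21 in the other pairs of replicates. The organ labels were checked with marker lists. The summed level of 8 photosynthesis genes was 35827 to 44085 CPM in the leaf of WT and 31453 to 31900 CPM in that of f3h, against 6.74 to 7.47 CPM in WT root and 71.5 to 78.0 CPM in f3h root. The summed level of 6 root genes was 4222 to 4396 CPM in WT root and 3815 to 3837 CPM in f3h root, against 9.93 to 15.4 CPM and 10.4 to 13.8 CPM in the leaf of WT and f3h.

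All 6 genes were root genes in the wild type. With edgeR's quasi-likelihood test, calls needed an adjusted p under 0.05 and, between organs, a log2 difference of 1 or more. All 6 were called higher in WT root than in WT leaf. Of the 25229 genes tested there, 52.8% were called, 29.9% higher and 22.9% lower in root, and 81.1% had groups without overlap. All 6 were also called higher in the root of f3h. Of the 24822 genes tested there, 52.8% were called, 28.8% higher and 24.0% lower, and 86.1% had groups without overlap. In the WT leaf libraries HB1 and PDC1 had no count, PDC2 had 5 to 7 and ADH2 had 8 to 16. These genes entered the WT test only through root and could only come out higher. The same held in f3h for PDC1 and PDC2, so both counts of 6 were partly fixed beforehand. The f3h line differed from the wild type in both organs. HB1, SUS1 and ADH1 rose in f3h leaf, while in f3h root HB1, ADH1, ADH2 and PDC2 fell and SUS1 rose.

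**Figure D1:**
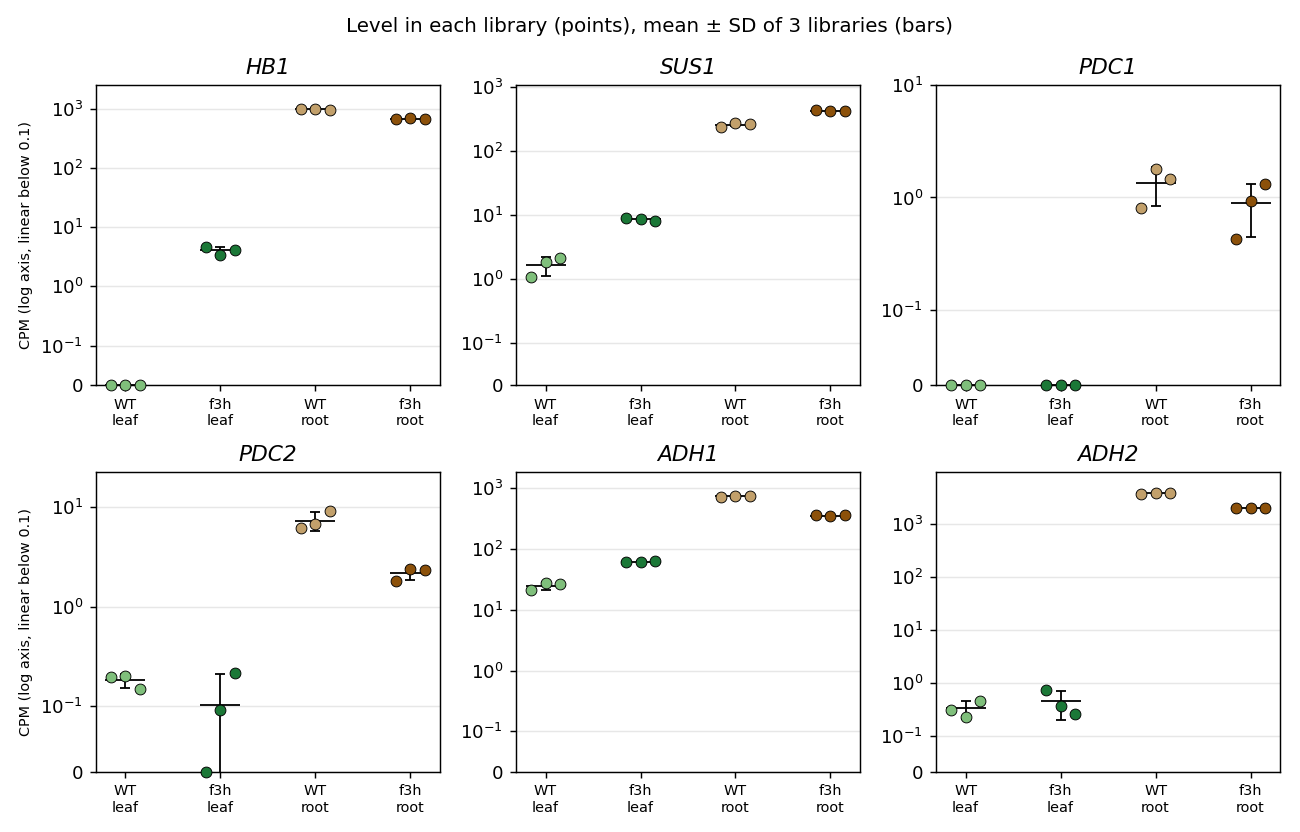
Level of each gene in CPM on a log axis (linear below 0.1) by group. Points are libraries, and bars are the mean ± SD of 3 libraries, cut at 0. HB1 lies at 0 in the leaf of WT and at 4.05 CPM in that of f3h, and of the 6 genes SUS1 has every f3h root library above every WT one.

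HB1, listed in the reference as the class 1 haemoglobin gene NSHB1, had no count in any WT leaf library and 172, 111 and 153 counts in the f3h leaf libraries. Every f3h leaf library was thus above every WT leaf library. In leaf 52.3% of the 22438 genes tested had groups without overlap, and 36.5% were called, 17.9% higher and 18.6% lower. Its f3h leaf level was 4.05 ± 0.621 CPM. Taking 3 counts over the group as the limit that a count of 0 allows, HB1 was at least 136-fold higher in f3h leaf, and it passed edgeR's test (adjusted p = 3.02e-05). This leaf level was 0.414% of the level in WT root.

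In WT root, HB1 stood at 990, 1002 and 945 CPM, and in f3h root at 676, 687 and 665 CPM. The lowest WT root library was above the highest f3h root library. HB1 fell by 0.56 ± 0.04 (standard error) on the log2 scale in f3h root (adjusted p = 4.58e-14), to 69.1% of its WT root level. In the same comparison 50.3% of the 24583 genes tested were called, 24.9% higher and 25.4% lower, and 57.3% had groups without overlap. HB1 in WT root was at least 32604-fold higher than in WT leaf, while in f3h the root was above the leaf by 6.71 ± 0.08 on the log2 scale (adjusted p = 1.35e-18). The order of its levels was WT leaf, f3h leaf, f3h root and WT root from low to high, with no overlap between neighbours.

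The haemoglobin family of rice puts these values in context, because its members are close in sequence and may share reads. HB3 and HB4 directly follow HB1 on chromosome 3 in the reference annotation, and HB2 (Os03g0226200) is on the same chromosome. HB2 had 6, 2 and 0 counts in the WT leaf libraries and stood at 749, 845 and 739 CPM in f3h leaf. It was therefore nearly absent from WT leaf and, in f3h leaf, at 81.0% of its WT root level. Its log2 fold change in leaf was 13.21 ± 0.32 (adjusted p = 2.45e-08). From pooled counts the ratio of f3h leaf to WT leaf was 9683, with an exact 95% counting interval of 4914 to 22430. WT leaf replicate 1 held 6 of the 8 WT counts, and without it the ratio was 26661, with an interval of 7380 to 220155 (log2 14.57 ± 0.16 in edgeR's test, adjusted p = 6.66e-32). The size of the HB2 rise therefore depends on that library, while its direction does not. In root, HB2 stood at 960 ± 29.4 CPM in WT and 621 ± 10.7 CPM in f3h and fell (log2 -0.66 ± 0.04, adjusted p = 1.74e-15).

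The ratio of HB1 to HB2 counts was far lower in f3h leaf than in either root group. HB1 counts were 0.624%, 0.407% and 0.547% of HB2 counts in the f3h leaf libraries, against 99.7% to 106% in WT root and 107% to 112% in f3h root. The part that misassigned HB2 reads may have in the low HB1 count of f3h leaf was not tested. HB3 and HB4 had no count in any leaf library, which allows at most 3 counts over a group. In root, HB3 stood at 0.779 ± 0.167 CPM in WT and 1.99 ± 0.519 CPM in f3h and rose (log2 1.32 ± 0.45, adjusted p = 0.0163). HB4 had 31, 27 and 32 counts in the roots of WT and 32, 22 and 59 in those of f3h and did not pass (log2 0.46 ± 0.49, adjusted p = 0.456). Of the 5 listed haemoglobin genes, 3 were tested in leaf and all 3 rose, and in root 3 fell and 1 rose among 5 tested. HB1 and HB2 were at or near 0 in WT leaf and entered the leaf test only through their counts in f3h leaf. For these genes the leaf test could only give a rise, so the leaf count was largely fixed beforehand. Over all genes, 17.9% rose in leaf, and 25.4% fell and 24.9% rose in root.

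**Figure D2:**
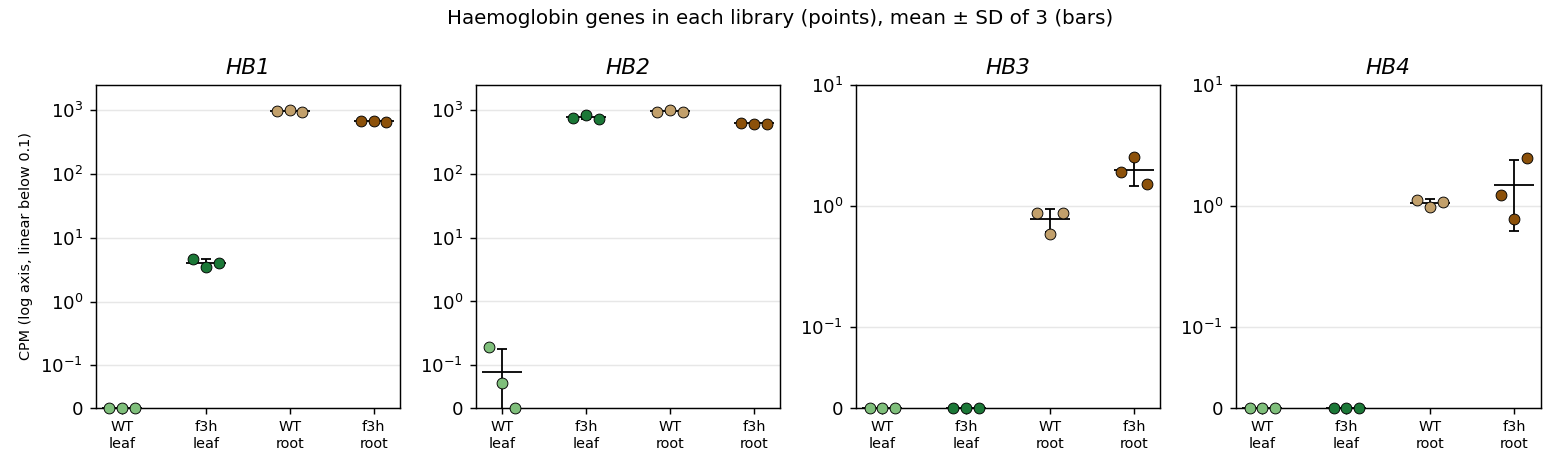
Level of HB1 to HB4 in CPM on a log axis (linear below 0.1) by group, with points for libraries and bars for the mean ± SD of 3, cut at 0. In f3h leaf HB2 stands at 778 CPM, at 81.0% of its WT root level, while HB1 stands at 0.414% of its own and HB3 and HB4 lie at 0.

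SUS1, a sucrose synthase gene and the entry of sucrose into this route, stood at 1.06, 1.80 and 2.13 CPM in the WT leaf libraries and at 8.92, 8.60 and 8.17 CPM in those of f3h leaf. The groups did not overlap, and WT leaf replicate 1 was the lowest. On the log2 scale SUS1 rose by 2.39 ± 0.26 (adjusted p = 0.000119), and by 2.16 ± 0.21 without WT leaf replicate 1. In root it stood at 242, 272 and 268 CPM in WT and at 436, 424 and 425 CPM in f3h. Each f3h root library was above each WT root library, and SUS1 rose there as well (log2 0.69 ± 0.05, adjusted p = 2.63e-13). Its order of levels was WT leaf, f3h leaf, WT root and f3h root, so that the root of f3h was the highest group, unlike for HB1 and ADH1.

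Of the other sucrose synthase genes, SUS4 (Os03g0340500) rose in leaf, from 1.96 ± 0.341 to 5.10 ± 0.373 CPM (log2 1.41 ± 0.22, adjusted p = 0.00114). In root SUS4 stood at 6.15 ± 0.932 CPM in WT and 7.13 ± 0.683 CPM in f3h and did not pass (adjusted p = 0.459). SUS2 (Os06g0194900) was at a log2 fold change of 0.56 ± 0.22 in leaf (adjusted p = 0.0691) and -0.09 ± 0.06 in root (adjusted p = 0.159). SUS6 (Os02g0831500) was at -0.94 ± 0.40 in leaf (adjusted p = 0.0976) and -0.14 ± 0.24 in root (adjusted p = 0.656). In all, 2 of 5 tested sucrose synthase genes rose in leaf, beside 17.9% of all genes, and 1 of 5 in root, near the 24.9% of all genes. Without WT leaf replicate 1, SUS2 passed as higher (log2 0.33, adjusted p = 0.00627) and SUS6 as lower (log2 -0.94, adjusted p = 0.0488) in leaf.

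The pyruvate decarboxylase genes, whose enzyme commits pyruvate to fermentation, differed widely in counts. PDC1 had no count in the 6 leaf libraries, which allows up to 0.0300 CPM in WT and 0.0281 CPM in f3h, at 3 counts over the group. In root it had 22, 49 and 43 counts in WT and 11, 26 and 31 in f3h. The root groups overlapped, and the log2 fold change of -0.64 ± 0.53 did not pass (adjusted p = 0.329, 95% interval -1.67 to 0.40). That interval holds both falls and rises, so no difference was detectable at this depth.

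PDC2 had 6, 7 and 5 counts in WT leaf and 0, 3 and 8 in f3h leaf, too few to be tested there. In root it stood at 6.16, 6.77 and 9.16 CPM in WT and at 1.82, 2.36 and 2.32 CPM in f3h. The root groups did not overlap, and PDC2 fell by 1.79 ± 0.25 on the log2 scale (adjusted p = 4.95e-07), the furthest fall among the 6 genes in root, to 29.4% of its WT root level. PDC3 (Os07g0693100) had no count in leaf, and in root stood at 0.525 ± 0.128 CPM in WT and 0.203 ± 0.238 CPM in f3h (adjusted p = 0.187). Of the 4 listed pyruvate decarboxylase genes, 1 rose and 1 fell in root, which is about the share of all genes there (24.9% higher and 25.4% lower). The riser was Os05g0469800, from 14.7 ± 3.10 CPM in WT root to 24.3 ± 2.04 CPM in f3h root (log2 0.69 ± 0.13, adjusted p = 8.79e-05). It had 1241 counts over WT root and 1883 over f3h root, while PDC2 had 626 and 168.

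ADH1, the alcohol dehydrogenase gene that the rice literature ties to survival under water, stood at 20.8, 27.8 and 26.3 CPM in the leaf of WT and at 61.1, 61.0 and 64.2 CPM in that of f3h. The groups did not overlap. ADH1 rose by 1.34 ± 0.12 on the log2 scale (adjusted p = 4.36e-05), and by 1.23 ± 0.08 without WT leaf replicate 1, the lowest of its group. In root it stood at 713, 748 and 741 CPM in WT and at 359, 344 and 357 CPM in f3h, again with no overlap. ADH1 fell there by 1.08 ± 0.04 on the log2 scale (adjusted p = 5.61e-20), to 48.2% of its WT root level. The organ difference of ADH1 was thereby smaller in f3h, at 1.85 ± 0.05 on the log2 scale for root against leaf, than in WT, at 4.31 ± 0.14.

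ADH2, which neighbours ADH1 in locus number and may share some reads with it, was nearly confined to roots in these libraries. In leaf it had 10, 8 and 16 counts in WT and 28, 12 and 10 in f3h, with overlapping groups, and did not pass (log2 0.48 ± 0.61, adjusted p = 0.573, 95% interval -0.71 to 1.66). In root ADH2 stood at 3737, 3880 and 3941 CPM in WT and at 2035, 2016 and 1996 CPM in f3h. The groups did not overlap, and it fell by 0.96 ± 0.03 on the log2 scale (adjusted p = 9.22e-23), to 52.3% of its WT root level. Root was above leaf by 12.89 ± 0.22 in WT and by 11.40 ± 0.12 in f3h on the log2 scale. The falls of ADH1 and ADH2 in root were thus of like size, while the leaf rise passed for ADH1 and not for ADH2, a difference between the genes that was not tested. All 3 listed alcohol dehydrogenase genes fell in root, where 25.4% of all genes fell. The third, Os11g0210600, had 0, 10 and 11 counts in WT leaf and none in f3h leaf, too few to be tested there. Without WT leaf replicate 1 it passed as lower in leaf (log2 -6.42, adjusted p = 0.00297). That size depends on the prior count, and the gene entered only through WT leaf, so it could only come out lower.

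**Figure D3:**
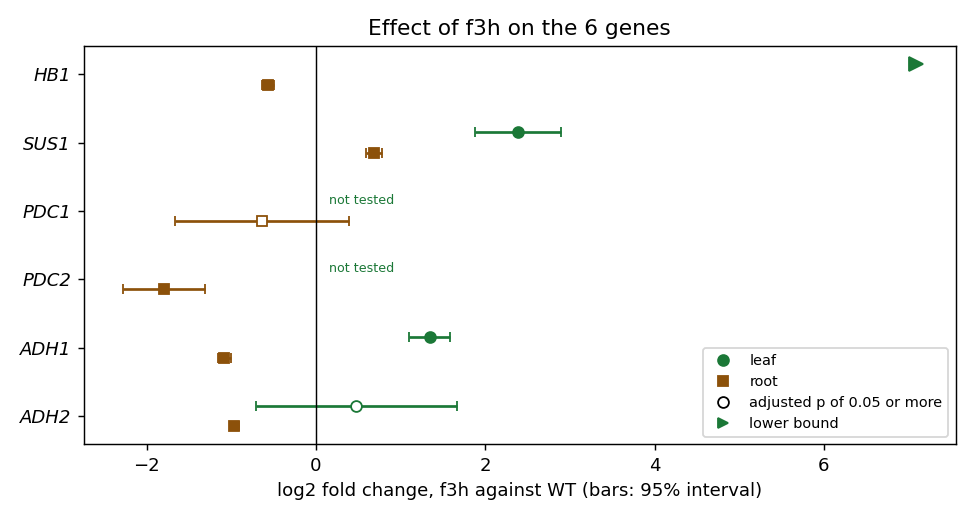
Log2 fold change of f3h against WT for each gene in leaf (circles) and root (squares), with bars for the 95% interval; open symbols did not pass, and the triangle is the lower bound of 136-fold for HB1 in leaf. In root 4 genes lie below 0 with their bars and SUS1 above, while in leaf HB1, SUS1 and ADH1 lie above 0.

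In counts, 3 of the 4 genes tested in leaf rose, beside the 17.9% of all genes tested. HB1 is among them, and it entered the leaf test only through f3h leaf, so it could only come out higher. The 6 genes were also chosen with earlier results of these data known, so their counts are no unbiased sample beside those shares. In root 4 of 6 fell and 1 rose, beside 25.4% and 24.9% of all genes tested. The median log2 fold change over the tested genes of the 6 was 1.86 in leaf and -0.80 in root, beside -0.02 and 0.01 over all genes tested. The leaf median leaves out PDC1 and PDC2, which were too low to be tested, and is the same with HB1 at its lower bound. In bulk tissue, fewer cells of a type and less RNA per cell cannot be told apart. Beside the leaf rises, the summed level of the 6 root markers was 9.93 to 15.4 CPM in the leaf of WT and 10.4 to 13.8 CPM in that of f3h, ranges that overlap. In WT leaf 2 of these markers, LSI2 and CASP1, were at 0, and in f3h leaf they had 2 and 1 counts over the group. Beside the root falls, 5 of the 6 root markers fell in f3h root. Their log2 fold changes ran from -0.15 ± 0.03 for LSI1 to -1.74 ± 0.08 for CASP1. CASP1, a Casparian strip gene, thus fell furthest of the 6, from 86.0 ± 3.55 to 26.2 ± 1.82 CPM. LSI2 was the marker that did not pass (log2 0.01 ± 0.03, adjusted p = 0.754). The summed level of leaf markers in root was 6.74 to 7.47 CPM in WT and 71.5 to 78.0 CPM in f3h, with none of the 8 at 0 in either. The part of these marker shifts in the root results was not tested.

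Whether the f3h effect differed between the organs was tested as an interaction over all 12 libraries. The effect in root was lower than that in leaf for 4 of the 6 genes, beside 17.4% of the 26328 genes tested, with 16.0% higher and 33.4% called in all. For ADH1 the difference of the log2 effects, root minus leaf, was -2.43 ± 0.13 (adjusted p = 3.57e-09). For SUS1, which rose in both organs, it was -1.70 ± 0.20 (adjusted p = 1.03e-05), a smaller rise in root. For ADH2 it was -1.46 ± 0.37 (adjusted p = 0.00714). That call rests on f3h leaf replicate 1, which held 28 of the 50 ADH2 counts of its group, since without it the difference was -0.90 (adjusted p = 0.0807), and it was lost with limma voom (-1.36, adjusted p = 0.0801). HB1 passed too (adjusted p = 6.75e-10), but the size of its difference depends on the prior count, since WT leaf had no HB1 count. For the same reason the HB1 difference could only come out lower, so its place among the 4 was fixed beforehand. PDC2 did not pass (-1.03 ± 0.83, adjusted p = 0.373), and for PDC1, with no leaf count, no finite difference could be estimated.

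Genes upstream of fermentation were read from lists. Among 7 genes of low-oxygen and sugar-starvation signalling, 3 rose and 1 fell of 6 tested in leaf, and 1 rose and 2 fell of 6 in root. The root counts are near the shares of all genes (24.9% higher and 25.4% lower), and in leaf 17.9% of all genes rose and 18.6% fell. CIPK15 (Os11g0113700), a protein kinase that in rice links oxygen shortage to sugar signalling, had 52, 40 and 29 counts in the WT leaf libraries and 3220, 2798 and 3567 in those of f3h. The groups were far apart, and its level rose from 1.22 ± 0.411 to 89.5 ± 4.20 CPM (log2 6.23 ± 0.19, adjusted p = 5.83e-08). CIPK15 also rose in root, from 59.7 ± 3.31 to 106 ± 4.03 CPM (log2 0.79 ± 0.06, adjusted p = 1.46e-11). It belongs to a family with near-identical copies, so its value is uncertain to the extent that reads were split. Its partner kinase gene SNRK1A (Os05g0530500) was at log2 fold changes of 0.14 ± 0.28 in leaf and 0.16 ± 0.16 in root and did not pass (adjusted p = 0.725 and 0.427). MYBS1 (Os01g0524500), a transcription factor of the same sugar response, was at -0.23 ± 0.08 and 0.09 ± 0.11 and did not pass (adjusted p = 0.0562 and 0.534), though without WT leaf replicate 1 it passed as lower in leaf (log2 -0.19, adjusted p = 0.00469). TPP7 (Os09g0369400), a trehalose-6-phosphate phosphatase gene known from germination under water, fell in leaf from 43.2 ± 8.90 to 29.0 ± 1.02 CPM (log2 -0.55 ± 0.15, adjusted p = 0.0203) and in root from 222 ± 6.66 to 137 ± 5.48 CPM (log2 -0.73 ± 0.05, adjusted p = 4.67e-13). The name TPP7 was matched to this locus by chromosome only and not by order along it.

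In glycolysis and sugar entry, 10 genes rose and 2 fell of 15 tested in leaf, with a median log2 fold change of 0.64. Over all genes 17.9% rose and 18.6% fell, with a median of -0.02. In root 3 rose and 9 fell of 16, with a median of -0.29, beside 24.9% and 25.4% of all genes and a median of 0.01. The aldolase gene FBA (Os05g0402700) rose in leaf from 79.9 ± 8.67 to 159 ± 6.89 CPM (log2 1.03 ± 0.11, adjusted p = 8.27e-05). The cytosolic glyceraldehyde-3-phosphate dehydrogenase gene GAPC1 (Os08g0126300) rose in leaf from 265 ± 76.8 to 760 ± 23.0 CPM (log2 1.55 ± 0.19, adjusted p = 0.000280), and in root it did not pass (log2 0.01 ± 0.05, adjusted p = 0.867). The enolase gene ENO1 (Os10g0167300) rose in both organs (log2 0.64 ± 0.08 in leaf and 0.31 ± 0.03 in root), as did GAPC2 (Os04g0486600, log2 0.40 ± 0.08 and 0.35 ± 0.03). GAPC3 (Os02g0601300) rose in leaf (log2 1.32 ± 0.19) and fell in root (log2 -0.41 ± 0.04), the pattern of ADH1. PPDKB (Os05g0405000), a pyruvate orthophosphate dikinase gene, fell in both, from 456 ± 22.9 to 166 ± 2.19 CPM in leaf and from 513 ± 13.4 to 331 ± 4.09 CPM in root. The other faller in leaf was Os02g0106100, listed as an invertase gene of sugar entry (log2 -2.61 ± 0.26, adjusted p = 6.41e-05). Its level went from 19.6 ± 5.42 to 3.15 ± 0.674 CPM in leaf and from 2.24 ± 0.311 to 0.315 ± 0.213 CPM in root.

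In this list the f3h effect was lower in root than in leaf for 12 of 16 genes and higher for 1, PPDKB (log2 difference 0.76 ± 0.09, adjusted p = 1.77e-05), beside 17.4% lower and 16.0% higher over all genes. For FBA the difference was -1.08 ± 0.12 (adjusted p = 6.00e-06), for GAPC3 -1.74 ± 0.20 (adjusted p = 9.44e-06) and for GAPC1 -1.54 ± 0.22 (adjusted p = 6.37e-05). A further list of 5 aldehyde and lactate dehydrogenase genes, which drain acetaldehyde or make lactate, had 2 risers of 4 tested in leaf, and 1 riser and 4 fallers of 5 in root. The shares of all genes were 17.9% higher in leaf, and 24.9% higher and 25.4% lower in root.

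**Figure D4:**
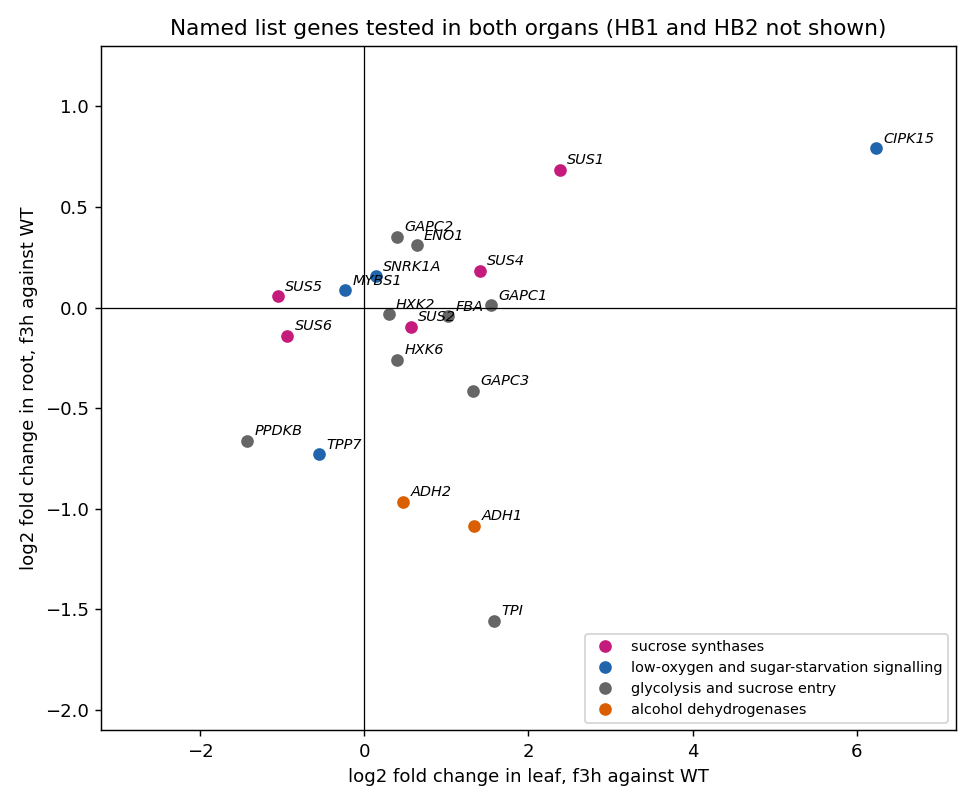
Log2 fold change of f3h against WT in leaf (horizontal) and in root (vertical) for the 20 list genes with a name in the reference that were tested in both organs, other than HB1 and HB2, whose leaf values are far larger; each point is a gene, coloured by list. ADH1 and GAPC3 lie at lower right (higher in leaf, lower in root), SUS1 and CIPK15 at upper right, and PPDKB and TPP7 at lower left.

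The genes whose pattern was most like that of each gene were sought by Pearson's r of log2 CPM over the 12 libraries, which fall into 4 groups and share organ and depth within a group. For HB1 the first was Os05g0451300 (r = 0.999), with mean CPM of 0.441, 9.42, 224 and 211 in WT leaf, f3h leaf, WT root and f3h root. The second was Os07g0639000 (r = 0.999), with 0, 1.01, 60.7 and 62.1 CPM in the same order. Both share with HB1 a very low or zero level in WT leaf and a low level in f3h leaf. Of 26327 genes, 57 had r over 0.99 with HB1, 94 with SUS1, 34 with ADH1, 477 with ADH2 and 76 with PDC1. For PDC2 the highest r was 0.985. None of the 5 genes most like each was on the lists.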

How the data were processed

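The values the authors deposited are read counts per gene for 12 libraries, whole and not normalized. HISAT2, fastp, DESeq and featureCounts are named in the submitters' processing notes. Their versions and strand setting, like the genome build and gene annotation, are not known from the sources used here, so genes with close copies or antisense partners may share reads. From these counts, CPM was computed on library totals. Tests used edgeR 4.0.16 in R 4.3.3 (filterByExpr, TMM, quasi-likelihood test), with Benjamini-Hochberg adjustment over all genes tested in each of 5 comparisons; all adjusted p-values come from it unless the text names another tool. The genotype effect was fitted on the 6 libraries of an organ, the organ effect on the 6 of a genotype, and the interaction on all 12. Standard errors were derived from the F statistic. With 3 libraries a group, a two-sided exact permutation test reaches 0.1 at the lowest, so none was run. Alternatives were other scalings, no count filter, DESeq2 1.42.0, limma 3.58.1 voom, a replicate block, a fit on all 12 libraries and leaving out each library. The procedure was also run on simulated counts, with an outcome that is not given here. For leaf and root the changed genes were not drawn from those of very low level. Genes without counts in a group were thus not covered there. PCR copies of a read are not independent molecules, so counting intervals and the floor of 3 counts cover only counting error.

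The genes and lists were chosen with earlier results of these data known. The rule for names took the 6 genes, up to 4 genes of each list and comparison by smallest p, and the genes most alike in pattern. A list gene was named only where the reference table (assembly ASM3414082v1) held its name on the chromosome of the locus identifier, as for 39 of 62 names, including all 6 genes. The others were counted and not named, though some are given by locus identifier alone, chosen after their values were seen. Matching loci to names rests on chromosome, and for 37 of these also on order along it within 10 percentage points. Start positions of reference genes were used only for their order along a chromosome, and sequences were not used here.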

Additional observations from a re-analysis of the deposited data

Results flagged for a closer look

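For 4 of the 6 genes the f3h effect differed between root and leaf in the interaction test over 12 libraries, beside 33.4% of all 26328 genes called and 17.4% called lower. The log2 difference, root minus leaf, was -2.43 ± 0.13 for ADH1, which rose in leaf and fell in root. For SUS1, which rose in both organs, it was -1.70 ± 0.20. For ADH2, with few leaf counts, it was -1.46 ± 0.37, a call lost with limma voom (adjusted p = 0.0801) and without f3h leaf replicate 1 (-0.90, adjusted p = 0.0807). For HB1 the fitted difference was -10.83 ± 0.40, a value that depends on the prior count and is no bound, since WT leaf had no count. It could only come out lower, so the place of HB1 among the 4 was fixed beforehand.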

How the results depend on the processing

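Over the 5 comparisons, 390 of 394 values of the 6 genes under the alternatives kept their direction and their side of the threshold. They include the PDC1 difference between organs, which has no finite estimate. They also include HB1 in leaf and organ comparisons of genes with few or no leaf counts, whose direction was fixed beforehand. The tally thus overstates how stable the results are. The f3h effect on ADH2 in leaf, which did not pass, turned to -0.073 without f3h leaf replicate 1, from 0.48 (range over the left-out libraries -0.073 to 0.80). The ADH2 difference between organs was lost with limma voom (-1.36, adjusted p = 0.0801) and without f3h leaf replicate 1 (-0.90, adjusted p = 0.0807), with values of -1.80 to -0.90 over the left-out libraries. The PDC2 difference, which did not pass, turned to 0.12 without f3h leaf replicate 3, with values of -1.63 to 0.12. The cause of these shifts was not tested. Same-numbered libraries did not deviate together (correlations -0.04 to 0.09), and 1, 2, 3 and 0 of 6 libraries correlated best with their own number in the leaf, root, WT and f3h comparisons. With the replicate block, 3801 genes rose and 3648 fell in leaf, against 4021 and 4167 without it, and 6035 rose and 6190 fell in root, against 6130 and 6232. The block changed no call of the 6 genes. Without WT leaf replicate 1, 5721 genes rose and 5423 fell in leaf. Leaving that library out of the HB2 ratio and of the list genes in leaf was chosen after seeing the data; the HB2 ratio moved from 9683 to 26661. Depth limits PDC1 in both organs, and PDC2 and ADH2 in leaf.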

Other observations

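RAMY3D (Os08g0473900), an alpha-amylase gene of the sugar-starvation response in rice, was too low to be tested and is named after its values were seen. It had no count in WT leaf and 10, 6 and 16 counts in the f3h leaf libraries, and in root 25, 6 and 4 counts in WT and 0, 0 and 4 in f3h.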
